A study of Mus musculus with 16 samples.

Results

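The 39 homeobox genes of the 4 mouse Hox clusters were examined in mIMCD3 cells, a line derived from the inner medullary collecting duct of the mouse kidney. The members were all rows of the TPM table (TPM is a level scaled to gene length and library total) whose symbol reads Hox, a cluster letter from a to d and a paralog number. They are 39 of 53354 genes, with 11 in the Hoxa cluster, 10 in Hoxb, 9 in Hoxc and 9 in Hoxd. All 39 had both a TPM row and a count row. The cells, labelled wild type, were grown on permeable filters for 10 days. They then received doxycycline (DOX, the tetracycline drug that switches on many inducible transgenes) at 2 µg/mL or its vehicle DMSO, renewed every day, for 3 or 6 days. This gives 4 groups of 4 poly(A)-selected RNA-Seq libraries: DMSO 3 days, DOX 3 days, DMSO 6 days and DOX 6 days. The cells come from 1 line, and the sources used here do not say whether replicates were separate cultures or thaws, so that p-values measure the spread between these libraries, which may be technical.

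Hox genes encode homeodomain transcription factors that give cells their position along the body axis. Within a cluster the genes lie in the order in which they are used, from low paralog numbers at the head end to high numbers at the tail end, and members with the same number in different clusters are paralogs. Chromatin carrying Polycomb marks keeps unused members silent, Trithorax proteins keep used members active, and retinoic acid is a classical inducer of low-numbered members. In the developing kidney the Hox11 paralogs are needed for the metanephric mesenchyme to induce the ureteric bud, the outgrowth from which collecting ducts form.

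In vehicle-treated cells 22 of the 39 members reached a mean of 1 TPM, and Hoxb9, Hoxa9, Hoxb6, Hoxb7 and Hoxb2 were the highest. The Hoxb and Hoxa clusters were read along nearly their whole length. Of Hoxd only Hoxd4, Hoxd8 and Hoxd9 reached 1 TPM, and of Hoxc no gene did. Few of the 24 tested members passed the test with DOX: 2 at 3 days (Hoxb3 and Hoxb5, lower). At 6 days 2 were lower (Hoxa10 and Hoxb5) and 1 higher (Hoxd9). Of all tested genes 7.22% were called lower and 5.30% higher at 3 days, and 11.6% and 10.0% at 6 days. Each of these member calls was lost in some other settings, given below.

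Promoters are shown for the members that passed the 1.2-fold test with DOX, where an entry was matched. Promoters of 22 members were matched by symbol in RefSeq (build GRCm38.p6, 250 bases before to 50 after each start), with 24 entries in all. Hoxd9 has 1 entry, at chr2:74697513-74697812 on the plus strand. Hoxa10 has 2, at chr6:52240805-52241104 and chr6:52234890-52235189, both on the minus strand. Hoxb3 and Hoxb5 were not matched. Each sequence reads from 5′ to 3′ on the strand of the gene, and capitals mark every match, on either strand, to 6 motifs searched in all promoters: TATAAA (the TATA box), TGATTTAT and TTTATTG (forms bound by HOX and CDX proteins), AGGTCA (the half-site of nuclear receptors such as the retinoic acid receptors), CCAAT (the CCAAT box) and CCGCCC (a GC box). No 2 capital blocks overlap.
Hoxd9: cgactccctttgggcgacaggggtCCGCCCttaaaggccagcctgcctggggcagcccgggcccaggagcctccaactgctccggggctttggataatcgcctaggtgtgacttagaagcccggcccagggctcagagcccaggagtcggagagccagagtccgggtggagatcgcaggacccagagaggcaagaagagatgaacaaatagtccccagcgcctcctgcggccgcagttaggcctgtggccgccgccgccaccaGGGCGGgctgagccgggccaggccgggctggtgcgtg
Hoxa10 upstream start: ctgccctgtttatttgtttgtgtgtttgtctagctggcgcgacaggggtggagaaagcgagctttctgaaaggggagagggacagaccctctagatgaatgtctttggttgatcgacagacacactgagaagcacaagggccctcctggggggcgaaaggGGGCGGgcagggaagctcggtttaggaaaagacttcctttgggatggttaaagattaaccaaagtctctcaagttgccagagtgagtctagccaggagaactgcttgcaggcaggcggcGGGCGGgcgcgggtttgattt
Hoxa10 downstream start: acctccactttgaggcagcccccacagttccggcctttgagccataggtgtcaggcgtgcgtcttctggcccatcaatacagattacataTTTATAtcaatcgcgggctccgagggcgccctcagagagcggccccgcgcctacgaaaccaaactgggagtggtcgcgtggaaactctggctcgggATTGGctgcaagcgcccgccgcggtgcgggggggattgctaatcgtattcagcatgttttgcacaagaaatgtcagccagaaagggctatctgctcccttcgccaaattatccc

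In the Hoxd9 promoter the capitals are 2 matches to CCGCCC, 1 in each orientation. The upstream Hoxa10 promoter held 2 matches to CCGCCC in reverse orientation. The downstream Hoxa10 promoter held TATAAA and CCAAT, each once and in reverse. Over all 24 Hox promoters, CCAAT was found in 15 (62.5%, against 37.4% of the 32851 promoters of this length in the table) and AGGTCA in 7 (29.2% against 16.3%). The other shares were 16.7% against 13.6% for TATAAA, 8.33% against 4.6% for TTTATTG, 41.7% against 35.7% for CCGCCC, and 0 of 24 against 0.977% for TGATTTAT. Hox promoters held a median of 14.5 CpG dinucleotides, against 7 over all promoters. This count did not separate used from unused members: it ran from 4 to 45 in the 16 promoters of members passing the expression filter described below and from 4 to 37 in the other 8. A match is a description of the letters and not a measured binding site.

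The clusters also hold microRNA genes: Mir196b in Hoxa, Mir196a-1 and Mir10a in Hoxb, Mir196a-2 and Mir615 in Hoxc and Mir10b in Hoxd. Mature RefSeq sequences of the miR-196 and miR-10 families are shown with the seed (bases 2 to 8) in capitals, because each family shares 1 seed across clusters.
miR-196a-5p: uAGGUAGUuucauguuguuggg
miR-196b-5p: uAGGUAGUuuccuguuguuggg
miR-10a-5p: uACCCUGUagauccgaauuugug
miR-10b-5p: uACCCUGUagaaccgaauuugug

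Poly(A) libraries do not capture mature microRNAs, so the values of these rows are not their levels. Mir196a-1, between Hoxb9 and Hoxb13, had up to 57 reads in a library. Mir10a and Mir196a-2 had at most 1 read, and Mir196b, Mir10b and Mir615 had 0 in all libraries. Mir196b lies inside an exon of Hoxa9 on the same strand, so reads there may have been counted for either gene.

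Library totals ran from 16933343 to 23960860 estimated counts. The upper limit of 3 counts that a count of 0 allows corresponds to 0.125 to 0.177 CPM (counts scaled to the library total) by library, and covers counting error only. Pearson's r between replicates of a group, across genes, was 0.981 to 0.992. The 3 pairs with DMSO 6-day replicate 1 were the lowest, at 0.981 to 0.982. DOX 3-day replicate 1 had a summed Hox level of 302 TPM, against 239 to 248 TPM in the other 3 libraries of its group, and without it 2295 genes in place of 1658 were called with DOX at 3 days. Where leaving out either library changed the call of a member, this is given beside that member. Kidney epithelial markers were present, with 8 of 8 at 1 TPM or more, among them Krt18 at 889 TPM and Pax8 at 108 TPM. Of 9 markers of the inner medullary collecting duct 3 reached 1 TPM and 2 passed the expression filter, the transcription factors Gata3 (2.67 TPM) and Tfcp2l1 (5.03 TPM). Aqp2, the vasopressin-regulated water channel of collecting duct principal cells, was at 0.184 TPM, and Avpr2, the vasopressin receptor, at 0.371 TPM.

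Levels across the clusters were compared in TPM over the 8 DMSO libraries. The Hoxb cluster, on chromosome 11 from 96194316 to 96368256 (174 kb, GRCm38), held the largest share of Hox transcripts, with a summed level of 188 ± 14.1 TPM (SD, n = 8) or 63.1% ± 0.856 of all Hox TPM. The Hoxa cluster, on chromosome 6, summed to 98.1 ± 8.75 TPM, a share of 32.9% ± 0.990. The Hoxd cluster, on chromosome 2 from 74668310 to 74765142 (96.8 kb), summed to 10.9 ± 0.835 TPM or 3.65%. The Hoxc cluster, on chromosome 15 from 102921103 to 103036852 (116 kb), summed to 1.11 ± 0.185 TPM or 0.374%. The ranges of the 4 sums did not overlap: Hoxb ran from 170 to 211 TPM, Hoxa from 86.8 to 112, Hoxd from 9.75 to 12.7 and Hoxc from 0.866 to 1.35. Of the members, 56.4% reached a mean of 1 TPM, against 25.0% of all genes in the table. These shares are not of like sets, since all members are protein-coding and the table also holds noncoding genes. Among genes passing the expression filter described below, the median was 5.82 TPM for members and 15.0 TPM for all.

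**Figure D1:**
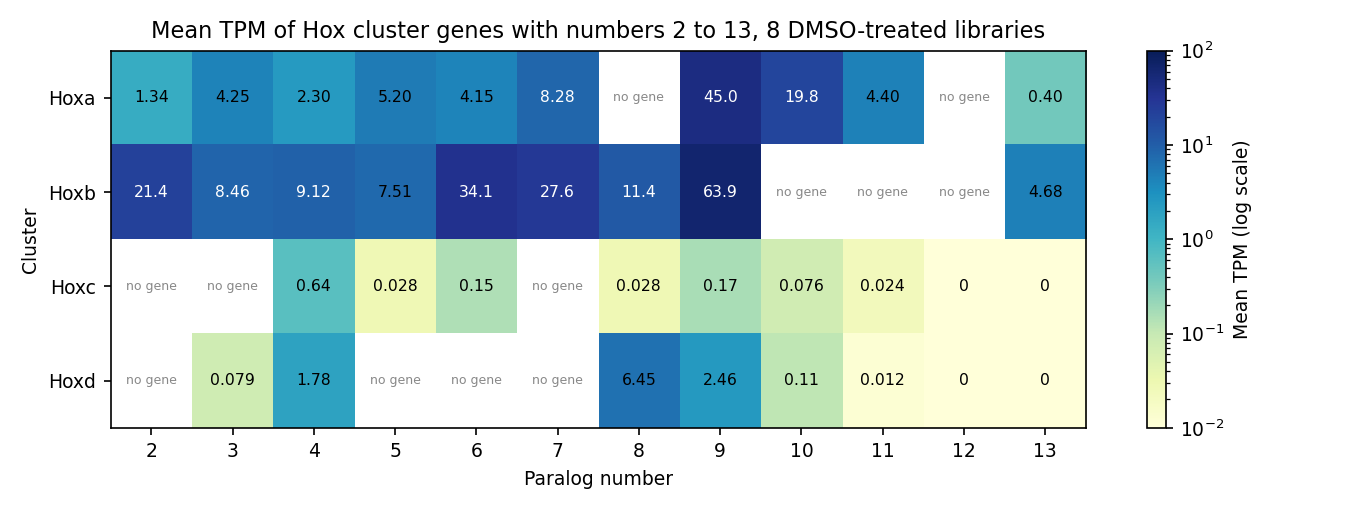
Mean TPM over the 8 DMSO libraries for Hox genes with paralog numbers from 2 to 13, with clusters as rows and paralog numbers as columns; the colour is on a log scale, 0 is drawn at the lowest colour, and "no gene" marks positions without a member in the mouse. The highest cells are Hoxb9 (63.9 TPM) and Hoxa9 (45.0 TPM), and the Hoxc row stays under 1 TPM.

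By paralog number, level peaked at position 9. The 4 members with number 9 summed to 112 ± 8.99 TPM, or 37.4% ± 0.722 of all Hox TPM, with a range of 101 to 123 TPM over the libraries. Number 6 followed with 12.9% and number 7 with 12.0%. Number 10 held 6.70%, number 11 1.49%, number 12 was listed at 0 and number 13 held 1.72%. The fall beyond number 9 was not the same in each cluster. In Hoxa it was stepwise, with Hoxa10 at 19.8 ± 1.38 TPM, Hoxa11 at 4.40 ± 0.590 and Hoxa13 at 0.404 ± 0.122. In Hoxd, Hoxd9 stood at 2.46 ± 0.279 TPM and Hoxd10 at 0.112 ± 0.0890. In Hoxb, where numbers 10 to 12 do not exist, Hoxb13 was at 4.68 ± 0.496 TPM.

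Hoxb9, the highest member, ranked 2013th among all genes. Its DMSO 3-day libraries held 58.5, 61.8, 64.3 and 73.1 TPM and its DMSO 6-day libraries 63.2, 61.6, 62.3 and 66.5 TPM. Hoxa9, which with Hoxb9 has known overlapping roles in limb and mammary gland development, held 39.7, 38.0, 54.7 and 46.7 TPM at 3 days and 53.2, 39.2, 46.8 and 41.4 TPM at 6 days. All 8 Hoxb9 values lay above all 8 Hoxa9 values.

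Hoxb6 held 34.6, 31.7, 37.5 and 37.9 TPM at 3 days and 38.7, 28.4, 31.5 and 32.7 TPM at 6 days. Hoxb7, whose promoter is widely used to drive transgenes in the ureteric bud and collecting duct, held 28.1, 22.9, 26.9 and 30.7 TPM at 3 days and 28.7, 24.5, 28.2 and 30.7 TPM at 6 days. Hoxb2, known for its role in hindbrain segments, held 17.4, 18.9, 22.8 and 20.8 TPM at 3 days and 24.0, 21.3, 24.6 and 21.5 TPM at 6 days. The ranges of Hoxa9, Hoxb6, Hoxb7 and Hoxb2 each overlapped with the next in this order, although in 8 of 8 libraries the order from Hoxb9 down to Hoxb2 held. Hoxb2 shares 27.3% of its exon length with Hoxb3os on the opposite strand, and whether the counting used strand is not given in the sources used here.

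Further down the order, ranges of neighbours overlapped for every adjacent pair apart from Hoxa10 over Hoxb8 (11.4 TPM) and Hoxa2 (1.34 TPM) over Hoxc4 (0.641 TPM). Between these steps lay Hoxb4 (9.12 TPM), Hoxb3 (8.46), Hoxa7 (8.28), Hoxb5 (7.51), Hoxd8 (6.45), Hoxa5 (5.20), Hoxb13 (4.68), Hoxa11 (4.40), Hoxa3 (4.25), Hoxa6 (4.15), Hoxd9 (2.46), Hoxa4 (2.30) and Hoxd4 (1.78). Hoxd8 was the leading gene of its cluster with 59.2% ± 1.94 of Hoxd TPM. Its DMSO libraries held 5.52, 6.55, 6.78 and 7.26 TPM at 3 days and 6.42, 6.30, 6.34 and 6.40 TPM at 6 days. Hoxd4 shares 52.3% of its exon length with other genes, Hoxd3 among them, so reads of these rows may have been split between them.

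**Figure D2:**
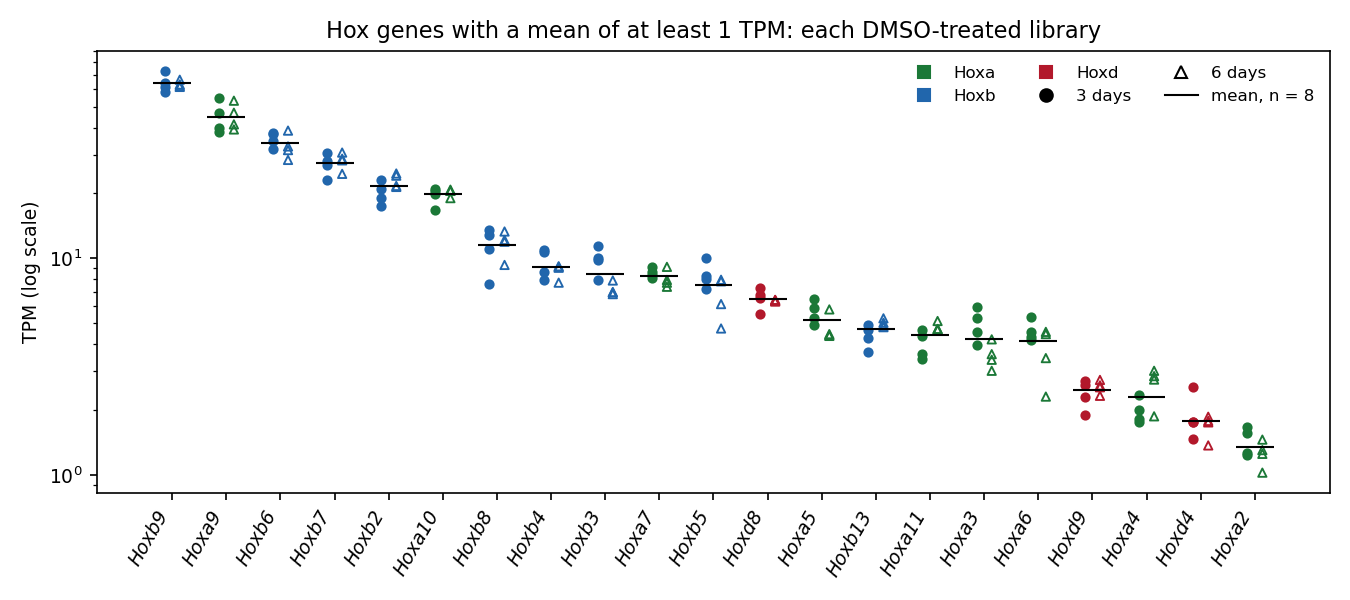
TPM (log scale) of members with a mean of at least 1 TPM, ordered by mean; filled circles are the 4 DMSO 3-day libraries, open triangles the 4 DMSO 6-day libraries, black lines the mean, and colours the cluster. Hoxb9 (58.5 to 73.1 TPM) stands clear of Hoxa9 (38.0 to 54.7 TPM), and most other neighbours overlap.

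The low end of the list was short of reads in all libraries. Hoxd1 and Hoxd12 had 0 counts in each of the 16 libraries, and 6 members stayed under 3 counts in every library (Hoxc8, Hoxc11, Hoxc12, Hoxd1, Hoxd12 and Hoxd13). Hoxc12, Hoxc13 and Hoxd13 were listed at 0 TPM in all DMSO libraries. Hoxc13 reached at most 5 counts and Hoxd11 at most 3.2, both in DOX libraries. Hoxb1 (0.0798 TPM), Hoxc5, Hoxc6, Hoxc9, Hoxc10, Hoxd3 and Hoxd10 lay between 0.0279 and 0.165 TPM. Of these, Hoxc9, Hoxc6 and Hoxb1 had 3 or more counts in 15, 13 and 12 of the 16 libraries, so they were low but read in most libraries. At this depth the other members named here were at or near the detection limit, and their absence cannot be claimed.

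To ask which members responded to DOX, DOX and DMSO libraries of the same day were compared with edgeR. The test asks for a change of more than 1.2-fold, on the 13234 genes that reached 1 CPM in 4 or more of the 16 libraries, and a gene was called where its Benjamini-Hochberg adjusted p was below 0.05. Of the members 24 were tested: all 11 of Hoxa, 9 of Hoxb (not Hoxb1), Hoxc4, and Hoxd4, Hoxd8 and Hoxd9. Values are given below in CPM scaled by TMM (trimmed mean of M-values, a correction for library composition), a scale used here only to compare 1 gene between libraries.

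At 3 days, 2 of the 24 tested members were called lower and 0 higher, and 3 had an unadjusted p below 0.05 in edgeR; DESeq2 called 0. Of all 13234 genes 7.22% were called lower and 5.30% higher, so the members' share was near the background. The members' log2 fold changes had a median of -0.03 and ran from -0.56 to 0.44, against a median of 0.00 over all genes. Libraries of the DOX and DMSO groups did not overlap for 7 members that were lower with DOX and 3 that were higher. Over all genes the shares without overlap were 19.8% and 18.8%.

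Hoxb3, a gene with known roles in hindbrain and thyroid development, fell at 3 days. Its DMSO libraries held 14.1, 14.7, 16.2 and 16.6 CPM and its DOX libraries 11.0, 9.36, 10.2 and 11.3 CPM. The highest DOX value lay below the lowest DMSO value, and the log2 fold change was -0.56 (SE 0.0932, edgeR adjusted p = 0.00644). DESeq2 did not call it (adjusted p = 0.0628). On the opposite strand, Hoxb3os covers 52.9% of the Hoxb3 exons. Hoxb3os had a log2 fold change of 0.14 (SE 0.141, edgeR adjusted p = 1.00) at 3 days.

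Hoxb5, which takes part in lung and enteric nerve development, fell at 3 days as well. Its DMSO libraries held 16.3, 13.5, 15.1 and 16.9 CPM, and its DOX libraries 12.8, 9.22, 10.2 and 10.2 CPM. The groups did not overlap, with a log2 fold change of -0.54 (SE 0.121, edgeR adjusted p = 0.0341). The call was lost when DMSO 3-day replicate 1 or 4 or DOX 3-day replicate 2, 3 or 4 was left out, with edgeR adjusted p from 0.0688 to 0.119. Hoxb5os covers 3.59% of the Hoxb5 exons.

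The third smallest p at 3 days belonged to Hoxb13, best known from the prostate and the tail end of the body. Its DMSO libraries held 8.39, 8.85, 8.07 and 6.04 CPM and its DOX libraries 8.91, 10.5, 11.0 and 12.0 CPM. The log2 fold change was 0.44 (SE 0.107) and was not called (edgeR adjusted p = 0.110). Without DOX 3-day replicate 1, the lowest of its group, it was called at 0.51 (edgeR adjusted p = 0.026).

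At 6 days, 1 of 24 tested members was called higher and 2 lower, again no more than the background of 10.0% higher and 11.6% lower. The median log2 fold change was 0.03, against 0.00 over all genes, with a range of -0.50 to 0.69. Groups did not overlap for 7 members higher and 5 lower with DOX, where the shares of all genes were 22.1% and 20.9%.

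Hoxd9, a paralog of Hoxa9 and Hoxb9 used in limb and trunk patterning, rose at 6 days. The DMSO libraries held 4.20, 4.00, 4.44 and 4.14 CPM and the DOX libraries 6.18, 6.45, 5.84 and 8.64 CPM. Every DOX value was above every DMSO value, with replicate 4 the highest. The log2 fold change was 0.69 (SE 0.128, edgeR adjusted p = 0.0025), or 1.61-fold. In limma on log2(TPM + 1) it was not called (adjusted p = 0.308). At 3 days its values were 4.35, 3.30, 4.52 and 4.08 CPM with DMSO and 5.06, 4.43, 4.83 and 4.70 CPM with DOX. These overlapped, with a log2 fold change of 0.24 (SE 0.133, edgeR adjusted p = 0.769). Its promoter is the first of those printed above.

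Hoxa10, known for its role in the uterus and in blood cell development, fell at 6 days. DMSO libraries held 27.4, 26.8, 27.9 and 27.5 CPM, a narrow spread, and DOX libraries 20.2, 21.3, 19.8 and 19.2 CPM. The groups did not overlap, and the log2 fold change was -0.44 (SE 0.0606, edgeR adjusted p = 0.00526). It was not called by DESeq2 (adjusted p = 0.0514), nor in edgeR with genes kept from 1 count in any library (adjusted p = 0.107), nor by limma on TPM. At 3 days DMSO libraries held 26.2, 28.3, 27.5 and 26.3 CPM and DOX libraries 21.4, 23.9, 21.9 and 24.3 CPM. There too no value overlapped, but the log2 fold change of -0.24 (SE 0.0604) did not exceed 1.2-fold in the test (edgeR adjusted p = 0.796). No other gene's exons overlap those of Hoxa10 or Hoxd9.

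Hoxb5 was called lower at 6 days too. DMSO libraries held 13.2, 8.74, 13.4 and 10.4 CPM and DOX libraries 8.24, 7.52, 8.01 and 8.59 CPM. The gap between the groups was small, from 8.59 to 8.74 CPM, and the log2 fold change was -0.50 (SE 0.126, edgeR adjusted p = 0.0487), just inside the limit. This call was lost in 16 of 28 alternative settings, among them those without DMSO 6-day replicate 1 (edgeR adjusted p = 0.139) or 3 (edgeR adjusted p = 0.173), without any 1 DOX 6-day replicate (edgeR adjusted p from 0.0501 to 0.108), and without DMSO 3-day replicate 1 or 3 or DOX 3-day replicate 3 or 4 (edgeR adjusted p from 0.052 to 0.0553). Hoxb3 at 6 days held 11.9, 12.0, 10.8 and 13.1 CPM with DMSO and 7.84, 8.67, 9.42 and 10.3 CPM with DOX. Its log2 fold change of -0.40 (SE 0.0954) was not called (edgeR adjusted p = 0.103).

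**Figure D3:**
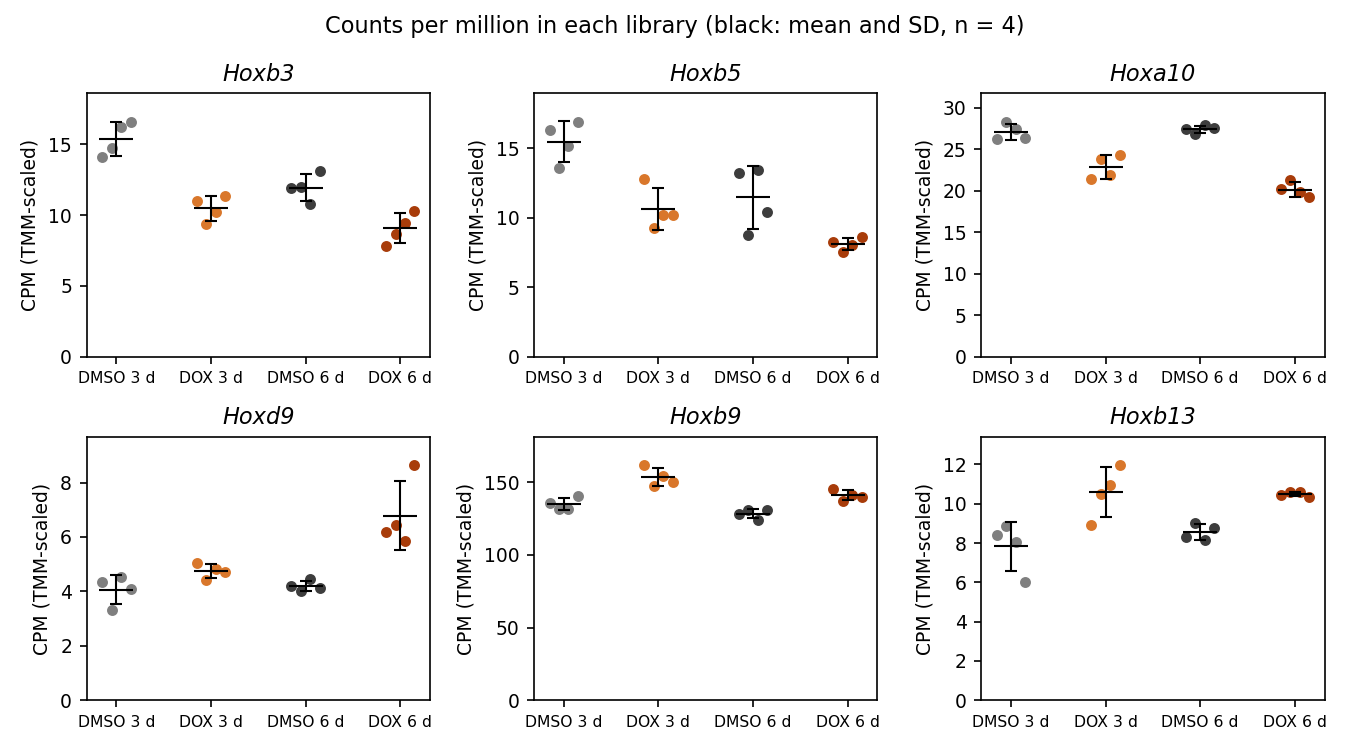
TMM-scaled CPM of 6 members in each of the 16 libraries (points), with mean and SD (n = 4) in black; each panel's axis starts at 0. Hoxb3 and Hoxb5 are lower with DOX at both times, Hoxa10 separates most at 6 days (19.2 to 21.3 against 26.8 to 27.9 CPM), Hoxd9 is highest in the DOX 6-day libraries, and Hoxb9 and Hoxb13 are higher with DOX on this scale, while Hoxb9 at 3 days was not in TPM.

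Direction differed along the Hoxb cluster. Of the 7 tested members from Hoxb2 to Hoxb8, the fold change was below 0 for 6 at 3 days and for 6 at 6 days, with medians of -0.34 and -0.35. The exception at both times was Hoxb2. Hoxb9 and Hoxb13 were above 0 at both times, although Hoxb9 at 3 days was not in TPM. The counts for Hoxb2 to Hoxb8 were the same in all 29 settings at each time. These settings reuse the same libraries and are not independent. Over all 13234 genes, 6575 were below 0 at 3 days and 6627 at 6 days. For Hoxb7 the 95% interval included 0 at 3 days (-0.29 to 0.09) and at 6 days (-0.32 to 0.06). So did that of Hoxb4 at 6 days (-0.30 to 0.03). Among the 9 tested Hoxb members only Hoxb3 and Hoxb5 were called at the 1.2-fold threshold. With no fold threshold, edgeR called Hoxb3, Hoxb4, Hoxb5, Hoxb6 and Hoxb8 lower and Hoxb2, Hoxb9 and Hoxb13 higher at 3 days, and the same genes except Hoxb4 at 6 days. In those fits 22.2% of all genes were called lower and 23.0% higher at 3 days, and 25.0% and 25.7% at 6 days. Of all 24 tested members, the same fits called 7 lower and 3 higher at 3 days, and 5 lower and 7 higher at 6 days. Taken over both directions, the members as a set were thus near the background.

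Hoxb6 is an example of a difference that was not called: it held 50.3 to 55.8 CPM with DMSO and 40.1 to 47.1 CPM with DOX at 3 days. At 6 days its values were 41.6 to 53.3 CPM with DMSO and 32.9 to 38.2 CPM with DOX. Neither pair overlapped. Hoxb9 held 132 to 140 CPM with DMSO and 148 to 162 CPM with DOX at 3 days, and 124 to 131 against 137 to 146 CPM at 6 days. These did not overlap either, at 1.14-fold and 1.10-fold. Hoxb7 overlapped at both times, with 20.3 to 24.8 CPM in DMSO and 17.6 to 23.6 CPM in DOX at 3 days and 20.2 to 23.6 against 19.1 to 21.6 CPM at 6 days. Hoxb2 held 26.3 to 31.0 CPM with DMSO and 32.5 to 34.0 CPM with DOX at 3 days, then 27.7 to 32.2 against 34.1 to 37.7 CPM. Among all tested members, the largest change not called was that of Hoxa13 at 6 days. Its log2 fold change was 0.64 (SE 0.248, edgeR adjusted p = 0.130), at low levels of 0.504 to 0.867 CPM with DMSO and 0.884 to 1.27 CPM with DOX.

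The make-up of the Hoxb transcripts in TPM also differed with DOX. Hoxb5 to Hoxb8 together took 42.8% ± 1.87 of Hoxb TPM in the 8 DMSO libraries and 36.2% ± 1.29 in the 8 DOX libraries. Their ranges were 41.2 to 44.9% with DMSO and 35.0 to 37.2% with DOX at 3 days, and 39.4 to 45.1% against 33.7 to 37.6% at 6 days. Hoxb9 took 34.0% ± 1.42 with DMSO and 39.1% ± 1.45 with DOX. At 3 days Hoxb9 itself averaged 64.4 TPM with DMSO and 64.3 TPM with DOX, while the Hoxb sum averaged 190 and 163 TPM. At 6 days the means were 63.4 and 66.9 TPM for Hoxb9, and 186 and 174 TPM for the sum. These shares describe unequal change within the cluster and follow from the genes given above. The cluster's own share of all Hox TPM was 63.1% ± 0.856 with DMSO, 63.4% ± 1.24 with DOX at 3 days and 62.0% ± 0.940 with DOX at 6 days, and these ranges overlapped.

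**Figure D4:**
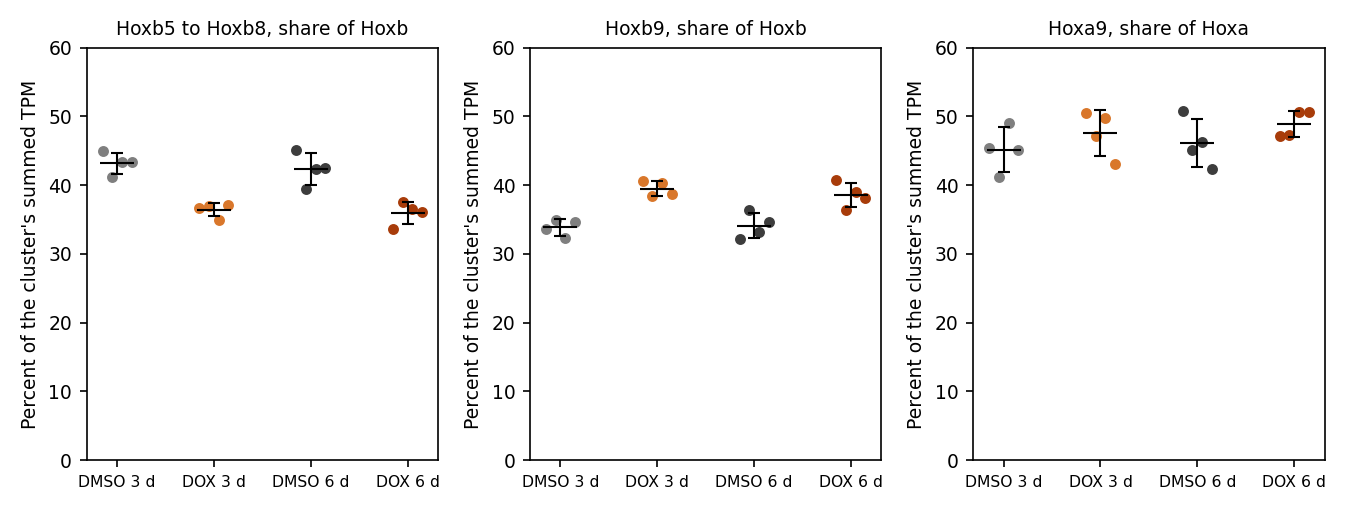
Share of a cluster's summed TPM (percent, axis from 0) in each of the 16 libraries for Hoxb5 to Hoxb8 together, for Hoxb9 and for Hoxa9; black marks give mean and SD (n = 4). The Hoxb5 to Hoxb8 share is lower (42.8% to 36.2% over both times) and the Hoxb9 share higher (34.0% to 39.1%) with DOX, while the Hoxa9 shares overlap.

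In the Hoxa cluster, Hoxa9 stood near no change, with log2 fold changes of 0.02 at both times. The 95% intervals, from the SE with 12 residual degrees of freedom, were -0.16 to 0.20 at 3 days and -0.15 to 0.20 at 6 days. Its libraries held 62.2, 54.4, 70.1 and 57.2 CPM with DMSO and 67.9, 61.7, 64.2 and 53.2 CPM with DOX at 3 days. At 6 days they held 67.4, 58.4, 68.1 and 58.6 CPM with DMSO and 60.7, 66.1, 64.6 and 64.9 CPM with DOX. Hoxa11, one of the Hox11 paralogs of the kidney, had log2 fold changes of 0.11 at 3 days and 0.30 (SE 0.0971, edgeR adjusted p = 0.398) at 6 days. Of the 11 tested Hoxa members, Hoxa10 at 6 days was the only one called. The 3 tested Hoxd members had fold changes above 0 at both times. At 3 days this count depended on scaling, since Hoxd4 and Hoxd8 turned negative in TPM. Hoxd8 held 11.5 to 13.3 CPM with DMSO and 11.0 to 13.3 CPM with DOX at 3 days, and 9.07 to 12.5 against 12.0 to 15.4 CPM at 6 days.

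On the TPM scale the median of all tested genes itself lay 0.15 below 0 at 3 days (log2(TPM + 1)), against 0.00 on TMM-scaled counts. TPM differences between DOX and DMSO at 3 days are therefore read relative to that shift. On that scale the log2 fold change at 3 days was -0.0047 for Hoxb9, -0.18 for Hoxa9 and -0.07 for Hoxa11, so that the signs of these genes turned.

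**Figure D5:**
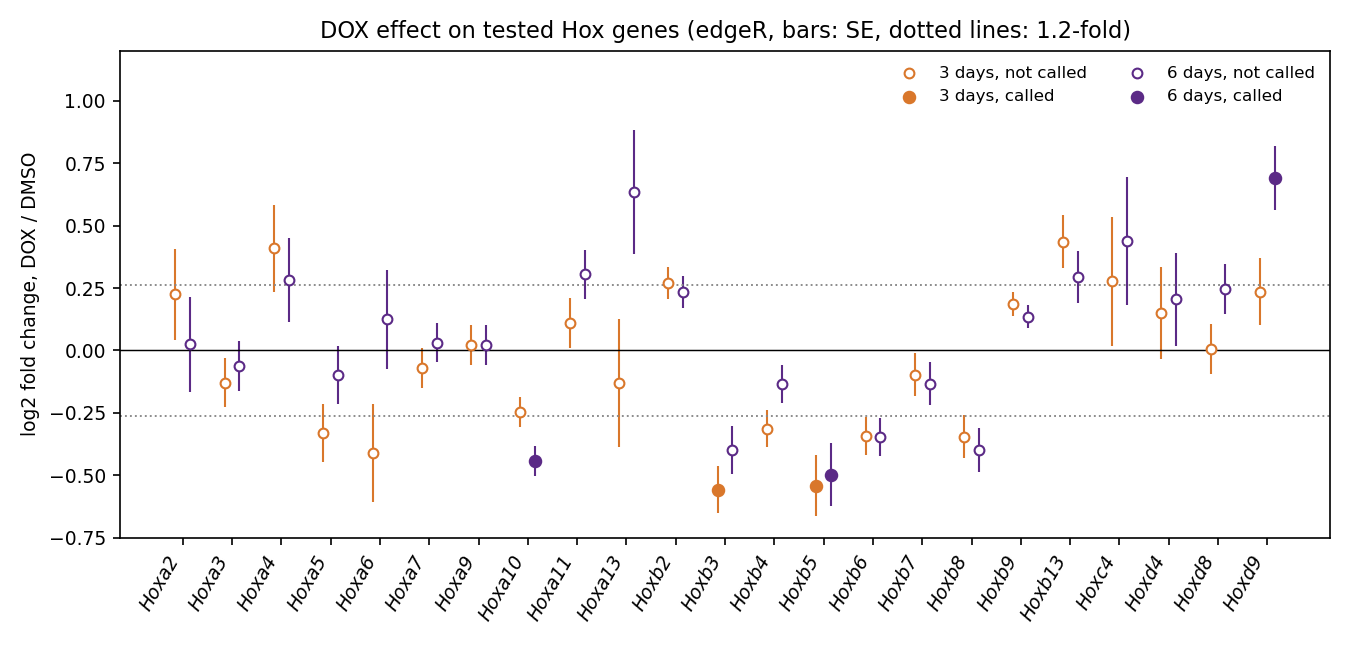
Log2 fold change, DOX over DMSO, of tested Hox genes at 3 days (orange) and 6 days (purple), by cluster and paralog number; bars are the SE, filled points were called and dotted lines mark a 1.2-fold change. Called are Hoxb3 (-0.56) and Hoxb5 (-0.54) at 3 days and Hoxa10 (-0.44), Hoxb5 (-0.50) and Hoxd9 (0.69) at 6 days.

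Vehicle-treated cells of the 2 times were compared to see whether Hox levels drifted in culture. No member was called, nor was any of the 13234 genes (0%) in edgeR; at an unadjusted p below 0.05 there were 172 genes, with Hoxb5 and Hoxb3 among them, and DESeq2 called 0 genes. The log2 fold change of 6 over 3 days was -0.44 (SE 0.120, edgeR adjusted p = 1.00) for Hoxb5 and -0.37 (SE 0.0921, edgeR adjusted p = 1.00) for Hoxb3. The DMSO groups did not overlap for 4 of the 24 members, Hoxb3, Hoxb4, Hoxb5 and Hoxb9, all lower at 6 days, and none higher. Over all genes the shares without overlap were 5.39% lower and 6.85% higher. Hoxb3, for example, held 14.1 to 16.6 CPM at 3 days and 10.8 to 13.1 CPM at 6 days. Of the members 16 were below 0 and 8 above, with a median of -0.10 against 0.00 over all genes. Both genes called lower with DOX at 3 days also had lower values in the older vehicle cultures, without passing the test. Both comparisons use the same DMSO 3-day libraries as reference, so these falls are not independent of each other.

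Whether the DOX effect differed between 6 and 3 days was tested by their interaction in edgeR. Of all genes 17.0% differed, and of the 24 members 0 did, with DESeq2 as well. Unadjusted p was below 0.05 for 3 members: Hoxd9, Hoxa10 and Hoxa13. The Hoxd9 effect was larger at 6 days by 0.46 on the log2 scale (SE 0.184, edgeR adjusted p = 0.091), and that of Hoxa10 differed by -0.20 (SE 0.0855, edgeR adjusted p = 0.112). The members called at a single time are therefore not shown to respond at that time only.

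HOX proteins bind DNA with TALE homeodomain cofactors, of which 10 of 11 listed were tested. At 3 days edgeR called 1 of them lower, not named here, where 7.22% of all tested genes were lower and 5.30% higher. At 6 days 0 were called in edgeR, 0 at an unadjusted p below 0.05. Of all tested genes 11.6% were then lower and 10.0% higher. Tgif1, a TALE repressor, was the highest at 62.6 TPM. Meis1, at 0.912 TPM, had a log2 fold change of 0.45 (SE 0.169, edgeR adjusted p = 0.176) at 6 days. The list's median log2 fold change was -0.01 at 3 days and 0.10 at 6 days.

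Among known upstream regulators of Hox genes, 11 of 18 listed were tested, and their median was -0.24 at 3 days and -0.39 at 6 days. DOX moved 2 of them past the test after 3 days, Egr2 and Zbtb16, and 6 after 6 days, of which Rxrb alone was higher. Over all tested genes 7.22% were called lower and 5.30% higher at 3 days, and 11.6% and 10.0% at 6 days. The medians over all tested genes were 0.0031 and -0.00064. Egr2, which activates Hoxb2 in the hindbrain, fell at both times, by 1.34 (SE 0.238, edgeR adjusted p = 0.000903) and by 1.09 (SE 0.24, edgeR adjusted p = 0.00381) on the log2 scale. Zbtb16, a repressor of Hox genes in the limb, fell by 1.04 and by 0.69 at 3 and 6 days. Of the retinoic acid genes, Aldh1a2, which makes retinoic acid and stood at 45.3 TPM, fell at 6 days by 0.52 (SE 0.0537, edgeR adjusted p = 0.000114), as did Aldh1a3 by 0.95. Rxrb, a partner of the retinoic acid receptors, rose at 6 days by 0.64 (SE 0.0696, edgeR adjusted p = 2.52e-05). Egr2, Zbtb16 and Aldh1a3 stood between 0.824 and 2.29 TPM in DMSO.

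Of 29 Polycomb genes, all tested, edgeR called 0 at 3 days, with 1 at an unadjusted p below 0.05, and at 6 days Ring1 alone, higher by 0.48 (SE 0.109, edgeR adjusted p = 0.0356). The catalytic subunit Ezh2 had log2 fold changes of 0.09 and -0.14, and the highest gene, Rbbp7, stood at 107 TPM. Of 14 Trithorax genes, Dot1l, a histone methyltransferase, fell at 3 days by 0.41 (SE 0.0631, edgeR adjusted p = 0.0353). Dpy30, a subunit of the MLL complexes and the highest of the list at 139 TPM, fell at 6 days by 0.42 (SE 0.0833, edgeR adjusted p = 0.0491). Of 8 tested genes that flank the clusters, edgeR called 0 at 3 days, with 2 at an unadjusted p below 0.05, and Cbx5, a heterochromatin protein encoded near Hoxc, fell at 6 days by 0.42. Beside these lists, the shares of all tested genes were 7.22% lower and 5.30% higher at 3 days, and 11.6% and 10.0% at 6 days.

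Between the first and last members of the clusters the annotation holds 46 other genes, of which 9 were tested. Hotairm1, a noncoding RNA of the Hoxa cluster, stood at 60.3 TPM, between Hoxb9 and Hoxa9, and Hotair, from the Hoxc cluster, at 0.0044 TPM. Hoxa11os, antisense to Hoxa11 over 35.0% of its exons, rose with DOX by 0.60 (SE 0.102, edgeR adjusted p = 0.00498) at 3 days and by 0.49 (SE 0.101, edgeR adjusted p = 0.0253) at 6 days. Hoxd3os1, which overlaps Hoxd3 and Hoxd4, rose at 3 days by 0.90 (SE 0.234, edgeR adjusted p = 0.0242). Reads of an antisense gene and its partner cannot be told apart where counting ignores strand.

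Some marker genes passed the test with DOX, and whether they varied together with Hox genes was not tested. Of the 8 kidney epithelial markers, 4 fell at each time, among them the tubule cadherin Cdh16 by 0.83 at 3 days and by 0.84 at 6 days. Over all tested genes 7.22% were called lower at 3 days and 11.6% at 6 days. The summed level of these 8 markers ran from 1929 to 2095 TPM with DMSO and from 1345 to 1645 TPM with DOX at 3 days, and from 2074 to 2299 against 1410 to 1567 TPM at 6 days. In log2(TPM + 1) the median change of all tested genes was itself -0.15 at 3 days and -0.05 at 6 days. Gata3 fell at both times, by 0.74 and by 0.97. The 9 inner medullary markers summed to 8.58 to 10.2 TPM with DMSO and 4.83 to 6.30 TPM with DOX at 3 days, and to 7.89 to 12.3 against 5.86 to 7.09 TPM at 6 days. No marker of any list was at 0 in all 16 libraries. Of the ureteric bud markers, 6 of 9 were tested: Etv5 rose by 0.93 and by 1.13 and Ret fell by 0.96 and by 1.46. Of the metanephric mesenchyme markers 3 of 8 were tested, and Cited1 fell at 6 days by 2.07. The defining stromal and endothelial markers were low: their summed levels reached at most 2.26 and 1.26 TPM in any library. The blood markers summed to as much as 24.6 TPM, above the inner medullary markers. This was mostly Cd68, which fell by 0.96 and by 0.90. Of 8 stromal markers only Foxd1 was tested, and it fell at 3 days by 0.88. The part of these shifts in the Hox values was not tested, and in bulk RNA fewer cells of a type and less RNA per cell cannot be told apart.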

How the data were processed

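RNA-Seq was performed on 16 libraries of mIMCD3 cells, 4 per group, with paired reads of 75 bases from a directional poly(A) kit. Per the labels and the study's methods, the authors aligned reads to GRCm38.p6 with STAR 2.6.0c and quantified genes with salmon (version 0.14.10 in the submitters' processing notes). The deposited estimated counts were not normalized and hold fractions, and were rounded here. The deposited TPM values were scaled by the authors to gene length and library total. Whether counting used strand is not given in the sources used here.

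Levels between genes were compared in TPM over the 8 DMSO libraries. Changes were tested with edgeR 4.0.16 (R 4.3.3): the 13234 genes that reached 1 CPM in 4 or more of 16 libraries, TMM scaling, a robust quasi-likelihood fit with 4 group means and no block, glmTreat at 1.2-fold, and Benjamini-Hochberg adjustment over all tested genes. The difference between times was tested without a fold threshold. The fit was tested on simulated data. Alternatives used DESeq2 1.42.0 and limma 3.58.1. Positions and overlaps came from GENCODE M21, promoters and microRNAs from RefSeq on GRCm38.p6. Of the genes with counts, 1039 had no TPM row. Library totals were 16933343 to 23960860.

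Members called in any comparison, the highest member of each cluster with at least 1 TPM and the 5 highest overall are given by library; effects are given for called members and the 3 smallest p in each DOX comparison, the rest in counts and ranges. Hoxb6, Hoxb9, Hoxa11 and other members were added to the effects after their values were seen. From the lists, some of the called genes, the smallest p and the highest gene are named. The members and lists were chosen with earlier results of these data known. Replicate numbers are shared between groups, but same-numbered libraries did not deviate together (r from -0.433 to 0.34 over 24 pairs), so they were not treated as pairs. Some genes are not reported or drawn here by name.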

Additional observations from a re-analysis of the deposited data

Results flagged for a closer look

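In each group of 4 libraries, the highest or lowest value of each tested member was compared with the others by Dixon's ratio (the gap to the nearest library over the range) and its 95% limit. Of 96 groups 5 were past that limit, where chance gives about 1 in 20, or 4.8. Hoxb6 in DOX 3-day replicate 1 stood at 47.12 CPM, above 40.1 to 40.59 CPM in the other 3 libraries. Hoxc4 in the same library was at 0.5508 CPM, below 1.475 to 1.519. Hoxa4 in DMSO 6-day replicate 2 was at 2.301 CPM, below 3.302 to 3.457. Hoxa5 in DOX 6-day replicate 1 was at 4.976 CPM, below 6.694 to 6.878. Hoxb2 in DMSO 3-day replicate 3 was at 31.02 CPM, above 26.32 to 26.88. None of these 5 genes was called in a comparison.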

How the results depend on the processing

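At 3 days the 2 calls, Hoxb3 and Hoxb5, were also made with RLE scaling, both other filters, no robust estimation and the 8 libraries of the comparison alone. DESeq2 called 0 members (1019 genes in all, against 1658), edgeR without a fold threshold 10 (5982 genes), and limma on log2(TPM + 1) and log2(TPM + 0.1) 1 each, Hoxb3 (701 and 909 genes). Leaving out 1 library at a time gave 1 to 3 members. At 6 days DESeq2 called 1 member, Hoxd9, edgeR without a fold threshold 12 (6702 genes), the filter of 1 count in any library 1, and limma 0 with either pseudocount (1307 and 1527 genes). Length and GC correction called 5, with or without the replicate block, and Hoxb3 and Hoxb8 were the additions. Hoxd9 and Hoxa10 at 6 days and Hoxb3 at 3 days were called in every fit that left out 1 library. Between the DMSO groups 62 genes passed without a fold threshold and 6 with the filter of 1 count, with no member in either. For the difference between times, 183 genes passed a 1.2-fold threshold and limma called 659 and 631. Leaving out 1 library gave 1369 (without DMSO 3-day replicate 4) to 3787 genes (without DOX 3-day replicate 1) and 0 to 1 member, Hoxd9 without DMSO 3-day replicate 2. The cause of these shifts was not tested.

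Of the 15 members recomputed, 5 that were not called turned direction under some setting. Hoxd8 at 3 days was at -0.0073 with the filter of 1 CPM in all libraries and at -0.0300 to 0.0609 with 1 library left out. With limma it was at -0.15 and -0.17, Hoxd4 at -0.0609 and -0.1005, Hoxb9 at -0.0047 and -0.0048, Hoxa9 at -0.177 and -0.181 and Hoxa11 at -0.0690 and -0.0852, for pseudocounts of 1 and 0.1. Of these Hoxb9 was not near 0 in edgeR, at 0.19 (SE 0.0469). Hoxa9 with 1 library left out was at -0.0388 to 0.0946 at 3 days and at -0.0139 to 0.0609 at 6 days, and at -0.0031 at 6 days with length and GC correction. In CPM in place of TPM the shares of Hoxa, Hoxb and Hoxd were 29.7%, 65.9% and 4.08%, and 9 of the 10 highest members by TPM were among the 10 highest by CPM. With only tested members the Hoxc share was 0.216%. Without members whose exons overlap another gene, which removes Hoxa9, the shares were 15.5% for Hoxa, 79.3% for Hoxb, 0.53% for Hoxc and 4.68% for Hoxd. At 0.5 and 2 TPM 23 and 20 members were counted in place of 22. With the replicate block, 2 members were called at 3 days (1570 genes) and 3 at 6 days (2767 genes), the same as without it. Depth limits the members that were not tested, which had at most 16.4 counts in a library, and Hoxc4, with 11 to 35 counts a library.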
